A study of Mus musculus with 3 samples.

Results

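Plasmacytoid dendritic cells were identified in the whole-cell library of a mouse lung study by their transcripts, as cell barcodes with at least 1 unique molecular identifier (UMI, a tag that counts 1 captured RNA molecule) of Siglech and at least 1 UMI in 2 or more of the 6 support genes Ccr9, Klk1, Cox6a2, Pacsin1, Bst2 and Tcf4. The rule found 78 members among 11934 barcodes, a share of 0.654% (95% exact Clopper-Pearson interval 0.517 to 0.815%). The study profiled lung cells and lung nuclei of wild type C57Bl/6J mice with 10x Chromium 3' version 3 kits. All animals were wild type, and no treatment is named in the labels. The whole-cell library came from fresh lungs taken apart with collagenase, DNAse and a mechanical dissociator and then passed over a density gradient, whereas nuclei 1 and nuclei 2 came from snap-frozen lungs of adult mice. The labels used here give neither an age nor a number of animals for the cell library. It is a single sample, so no difference below has a replicate check and no p-value is given. Intervals cover counting error only.

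Plasmacytoid dendritic cells are a rare lineage of the bone marrow that patrols blood, lymphoid organs and barrier tissues. They sense viral RNA and DNA in endosomes through TLR7 and TLR9 and are known for secreting large amounts of type I interferon. Their identity depends on the E protein E2-2, encoded by Tcf4, and they are told from conventional dendritic cells (cDC1, which cross-present antigen to cytotoxic T cells, and cDC2, which prime helper T cells) by low class II antigen presentation in the resting state and by several lymphoid genes.

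The members held 245639 UMIs in all, with a median of 3009 UMIs (range 2096 to 4584) and 1819.5 genes per barcode, against a median of 2864 UMIs over the whole library. Barcodes meeting the marker rule of 1 other class only gave the comparison groups: 72 cDC1-like, 74 cDC2-like and 279 B cell-like barcodes, with medians of 3575, 3222 and 2646 UMIs. The libraries held 6849 barcodes in nuclei 1 and 9806 in nuclei 2. The cell library shared 21 barcode sequences with nuclei 1, of which 1 was a member, and 24 with nuclei 2, of which none was.

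Of the 7 genes of the rule, Siglech encodes a sialic acid-binding surface receptor, Ccr9 the receptor of the chemokine CCL25, Klk1 a secreted tissue kallikrein, Cox6a2 the heart and muscle form of a cytochrome c oxidase subunit, Pacsin1 an adaptor of membrane trafficking, Bst2 the surface protein tetherin and Tcf4 the transcription factor E2-2. Their levels chose the members and are given as a description. Siglech had 1 to 11 UMIs per member, with a median of 3, and summed to 1075 per 1000000 UMIs of the group (CPM) against 1.04 CPM in the other 11856 barcodes. Tcf4 was detected in 77 members and Bst2 in 68. Ccr9 was detected in 55 members, Pacsin1 in 53, Cox6a2 in 35 and Klk1 in 27. Klk1 was almost absent elsewhere, with 6 UMIs in all other barcodes (240 CPM in members, 0.168 CPM elsewhere). Tcf4 and Bst2 were widespread: 90.4% of endothelium-like barcodes (median depth 2726 UMIs) and 65.6% of B cell-like barcodes held Tcf4, and 32.4% of endothelium-like barcodes held Bst2. For 7 members these were the only support genes, with none of Ccr9, Klk1, Cox6a2 and Pacsin1. Siglech itself was found in 11 of 3235 endothelium-like barcodes (0.340%), in 3 of 1745 alveolar macrophage-like barcodes (0.172%) and in 0 of 279 B cell-like barcodes. These groups leave out every barcode that also met the plasmacytoid rule, so their Siglech shares are partly set by that choice.

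The promoters of some of these genes are shown because E2-2 binds E-boxes, the family of motifs written CANNTG, and because the genes were high in the same barcodes. The windows are the bases before the RefSeq start site (build GRCm38.p6), 5′ to 3′ on the strand of the gene, without any base of an annotated exon. Capitals mark the E-box CAGGTG on either strand (CACCTG on the other). The windows are chr7:55767934-55768177 (plus strand), chr7:44225110-44225359 (plus strand), chr8:71537473-71537722 (minus strand), chr11:114960508-114960757 (minus strand), chr7:44524670-44524919 (minus strand) and chr7:44532072-44532321 (minus strand). The first 3 belong to genes of the rule and the last 3 to leading genes described below, of which Spib is an example without a match.
Siglech: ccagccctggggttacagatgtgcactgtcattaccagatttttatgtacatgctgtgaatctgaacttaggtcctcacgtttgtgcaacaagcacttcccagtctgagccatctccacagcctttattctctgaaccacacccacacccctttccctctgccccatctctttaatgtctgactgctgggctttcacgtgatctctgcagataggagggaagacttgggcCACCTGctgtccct
Klk1: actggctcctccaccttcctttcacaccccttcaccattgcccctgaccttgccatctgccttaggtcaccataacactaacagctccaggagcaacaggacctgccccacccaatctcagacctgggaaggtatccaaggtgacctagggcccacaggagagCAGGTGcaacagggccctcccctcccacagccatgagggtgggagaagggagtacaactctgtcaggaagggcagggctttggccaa
Bst2: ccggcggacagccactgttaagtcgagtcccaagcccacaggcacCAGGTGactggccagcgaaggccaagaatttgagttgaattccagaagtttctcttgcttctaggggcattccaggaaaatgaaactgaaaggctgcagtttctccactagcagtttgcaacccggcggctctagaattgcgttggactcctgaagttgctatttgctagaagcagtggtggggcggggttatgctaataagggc
Cd300c: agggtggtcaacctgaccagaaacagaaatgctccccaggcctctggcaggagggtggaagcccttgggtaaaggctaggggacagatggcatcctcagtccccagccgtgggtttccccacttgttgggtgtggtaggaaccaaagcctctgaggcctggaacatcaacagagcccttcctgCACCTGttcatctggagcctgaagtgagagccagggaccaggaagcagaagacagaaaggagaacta
Mybpc2: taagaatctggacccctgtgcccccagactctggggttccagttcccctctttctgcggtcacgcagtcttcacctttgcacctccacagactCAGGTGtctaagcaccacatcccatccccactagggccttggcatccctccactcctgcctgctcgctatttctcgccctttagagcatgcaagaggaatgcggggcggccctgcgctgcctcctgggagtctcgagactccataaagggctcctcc
Spib: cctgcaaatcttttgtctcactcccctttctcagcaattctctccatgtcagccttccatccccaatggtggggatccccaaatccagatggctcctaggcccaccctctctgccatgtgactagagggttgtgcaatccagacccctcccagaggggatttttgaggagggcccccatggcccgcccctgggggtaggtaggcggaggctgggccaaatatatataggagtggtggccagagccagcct

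CAGGTG, searched on both strands in the 250 bases before each start, was present for 4 of the 5 rule genes found in the RefSeq table (Bst2, Ccr9, Klk1 and Siglech) and for 9 of the 19 leading genes found there. By promoter, since some genes have several starts, 11 of 26 windows of leading genes (42.3%) held it, against 17.2% of all 32851 windows. The broader CANNTG, which contains CAGGTG, was in 20 of these 26 windows (76.9%) against 66.2% of all windows. CAGCTG, another E-box, was in 4 of 26 (15.4%) against 4271 of all 32851. TGTGGT, the core motif of RUNX factors, was in 4 of 26 (15.4%) against 14.0%. GAGGAA, the core of motifs bound by PU.1 and Spi-B, was in 9 of 26 (34.6%) against 23.3%. These are matches of letters, and no binding was measured.

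Siglech barcodes differed in how many support genes they held, as the plot of Siglech barcodes by support genes shows. Of 112 barcodes with Siglech, 9 had none of the 6, 25 had 1, 13 had 2, 13 had 3, 19 had 4, 24 had 5 and 9 had all 6. When all cells were clustered without the 7 rule genes, 60 of the 78 members (76.9%) fell into a single cluster of 71 barcodes, and the same 71 barcodes formed a cluster at each of 3 resolutions. Members with more support genes lay in it more often. All 33 members with 5 or 6 support genes lay in it, as did 17 of 19 with 4, 6 of 13 with 3 and 4 of 13 with 2. Of the 7 members with Bst2 and Tcf4 as their only support, 2 lay in it. Its leading genes, which the clustering used, were Grm8, Cd209d, Olfr164, Mybpc2, Lrp8, Paqr5, Klra17, Spns3, Sla2 and Srgap3.

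**Figure D1:**
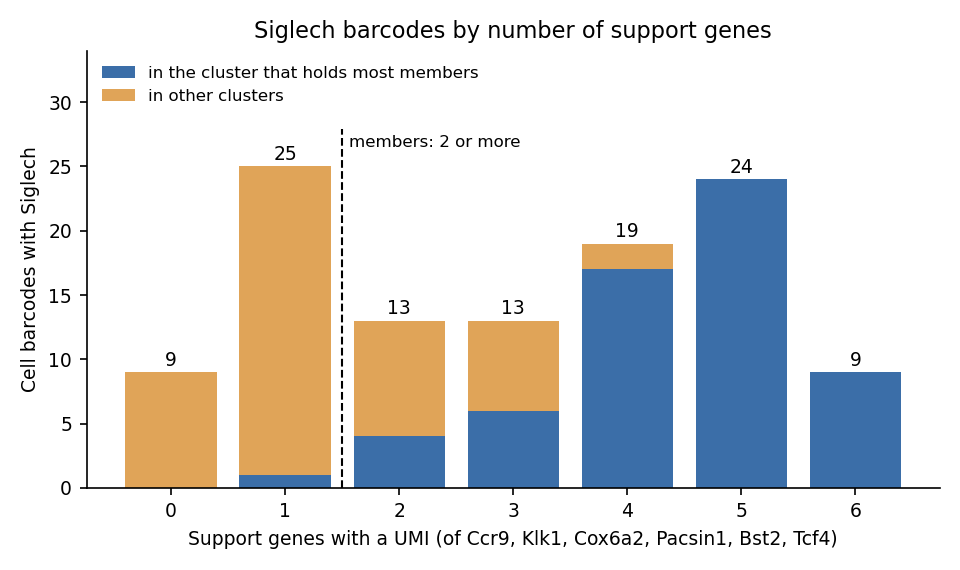
Number of Siglech-positive barcodes (vertical axis) by the number of support genes with a UMI (horizontal axis). Blue is the part in the cluster of 71 barcodes that holds most members and orange the part in other clusters. Orange makes up 24 of the 25 barcodes with 1 support gene, and blue all of those with 5 or 6.

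The other 18 members were spread over 9 clusters. Of these, 5 lay in a cluster led by Cd209a, Mgl2 and Flt3, genes of cDC2, and 3 in one led by Siglecf and Cidec, genes of alveolar macrophages. Clusters led by endothelial genes held 7 of them: 3 in the one with Ednrb and Apln, 2 in the one with Vwf, 1 in the one with Bmp6 and 1 in the lymphatic one with Prox1 and Ccl21a. The remaining 3 lay singly in clusters led by C1qc, by Treml4 and by Jchain. These 18 held 1 Siglech UMI in 10 cases, against 7 of the 60 in the common cluster, while their median depth was 3170 UMIs against 2934.5. Siglech summed to 591 CPM in them and 1222 CPM in the 60.

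The clustering that parts the 60 from the 18 used all genes but the 7 of the rule, so their levels in both sets describe the clusters and are no added evidence. Grm8, the metabotropic glutamate receptor 8, was detected in 59 of the 60 (2588 CPM) and in 5 of the 18 (348 CPM). Mctp2, a membrane protein with calcium-binding C2 domains, was in 60 of 60 (1382 CPM) and in 9 of 18 (504 CPM). Spib, an Ets transcription factor of B cells and plasmacytoid dendritic cells, was in 40 of 60 and in 1 of 18. All 7 markers of alveolar macrophages and all 7 of endothelium had UMIs in the members. Those of alveolar macrophages summed to 79.7 CPM in the 60 and 1183 CPM in the 18, against 1229 CPM in all other barcodes. Those of endothelium summed to 1866 CPM and 3670 CPM, against 3247 CPM in all other barcodes. The part of these markers in the difference between the 60 and the 18 was not tested.

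The cluster also held 11 barcodes that were not members, of which 10 had no Siglech UMI. Grm8 was present in all 11, Mctp2 in 10, Tcf4 in 11, Pacsin1 in 6 and Ccr9 in 4, whereas Klk1 and Cox6a2 were in 0. A count of 0 in 11 barcodes allows a share with a UMI of up to 27.3% (3 of 11), and it limits detection, not expression. At the threshold of the rule, the 13 members with exactly 2 support genes and the 25 barcodes just outside it with 1 had similar depth (median 3052 and 3108 UMIs). Grm8 was in 4 of the 13 and 2 of the 25, Mctp2 in 6 and 2, Runx2 in 5 and 5, and Spib in 3 and 0.

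Markers of other classes were present in the members. Cdh5, the lead gene of the endothelium rule, was found in 40 of 78 members (51.3%) and in 46.3% of other barcodes. Plasma cell markers, with 5 of 7 detected, summed to 2850 CPM against 2843 CPM in other barcodes, and cDC1 markers, with 4 of 6 detected and Naaa and Gcsam at 0, to 867 against 622 CPM. The rule of at least 1 other class was met by 35 members, of which 22 lay in the common cluster. The endothelium rule accounted for 28 of them (35.9% of members, interval 25.3 to 47.6%). That rule was met by 16.4 to 37.8% of the barcodes of each other class, at class medians of 2698.5 to 3792 UMIs. Rules other than endothelium were met by 10 members, 4 of them in the common cluster. No member met the rule of cDC1, migratory dendritic cells, NK cells, classical or non-classical monocytes, mesenchyme or epithelium. F13a1, the lead gene of the classical monocyte rule, had 0 UMIs in the members.

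The comparison with all other barcodes asks which transcripts set the members apart. A gene was considered when the members held at least 10 UMIs or would have held 10 at the rate of the other group, and called at a 4-fold difference in CPM. Genes low in the other group reach this minimum only through the members, so their call of higher follows largely from it. Of 5871 genes considered, 153 were called higher (2.61%), the 7 rule genes included, and 151 lower (2.57%). Among the 60 members of the common cluster alone, 149 of the 153 passed the 4-fold mark, and in the 18 others 52 did. Of the 151, 143 passed it in the 60 and 62 in the 18.

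The 25 leading genes by fold, among those detected in at least 10% of members, are given by known function, membrane receptors first. Grm8 had 0 to 23 UMIs per member with a median of 6, and was detected in 64 of 78. It reached 2064 CPM (1888 to 2252) against 4.62 CPM elsewhere, which is 447-fold higher (374 to 536). Its log2 fold of 8.80 was 7.84 without members that met another class rule, 7.83 after thinning to 1000 UMIs and 9.41 over the whole common cluster. Its 165 UMIs outside the members lay in 112 barcodes, and 55 of them (33.3%) were in the 11 non-members of the common cluster. Lrp8, a receptor of apolipoprotein E and reelin, was detected in 53 members with a median of 1 UMI and was 64.1-fold higher (52.0 to 78.8).

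Several receptors of immune cells were among the leading genes. Cd209d, a C-type lectin of the DC-SIGN family, reached 138 CPM against 0.476 CPM (291-fold, 158 to 555). Klra17, which encodes the lectin Ly49Q, was detected in 32 members at 232 CPM against 6.27 CPM (37.0-fold). Cd300c, an activating receptor of the CD300 family, was 101-fold higher, Havcr1, which encodes TIM-1, 83.1-fold and Cd7 21.1-fold. Paqr5, a membrane progestin receptor, was 40.7-fold higher, and Sla2, an adaptor that damps antigen receptor signalling, 25.5-fold. Klra17 and Cd209d belong to families of similar genes, and how reads shared between copies were counted is not given in the sources used here.

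Of 10 listed lymphoid genes considered, 2 were called higher (Dntt and Blnk) and none lower, with a median log2 fold of 0.58. Over all 5871 genes considered, 2.61% were higher and 2.57% lower. Not called and below the library were Ighm (594 against 1097 CPM), Cd79a (24.4 against 43.8 CPM), Cd79b (44.8 against 58.6 CPM) and Cd3e (32.6 against 43.7 CPM). Not called and above it were Iglc1 (3.72-fold), Ly86 (3.18-fold), Il7r (2.03-fold) and Notch1 (1.10-fold). Dntt, the template-independent DNA polymerase TdT of V(D)J recombination, had 17 UMIs in 13 members, all 13 in the common cluster, and 8 UMIs in the rest of the library. That is 69.2 CPM against 0.224 CPM (309-fold, 126 to 827). Dntt reached the minimum only through the members. Iglv3, a lambda light chain variable segment, had 14 UMIs in 12 members (33.9-fold). Blnk, an adaptor of B cell receptor signalling and a listed lymphoid gene, was detected in 53 members at 635 CPM against 40.1 CPM (15.9-fold, 13.3 to 18.7).

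Olfr164 and Olfr165, annotated as olfactory receptor genes, lie beside the lambda light chain locus on chromosome 16, both on the minus strand like Iglv2 and Iglv3. Olfr164 (chr16:19284104-19314064, GRCm38) is separated from Iglv2 by 23244 bases, counted from its 3' end. It had 0 to 9 UMIs per member with a median of 3, was detected in 62 members and reached 1030 CPM against 7.25 CPM (142-fold, 119 to 170). B cell-like barcodes held 47.9 CPM of it. Olfr165 was detected in 16 members, each of which also held Olfr164. Whether these UMIs come from olfactory receptor transcripts was not tested.

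Genes named for muscle or other tissues were also among the leading ones. Mybpc2, the fast skeletal myosin-binding protein C, was detected in 35 members at 370 CPM against 5.18 CPM (71.5-fold, 55.0 to 92.4). Its neighbour 1336 bases upstream on the same strand of chromosome 7 (chr7:44525993-44532071, GRCm38) is Spib. Both were found in 24 members and neither in 26. Spib was detected in 41 members at 220 CPM against 9.63 CPM (22.8-fold, 16.8 to 30.5). B cell-like barcodes held 119 CPM of Spib and 36.6 CPM of Mybpc2. Sh3bgr had 19 UMIs in 13 members (120-fold). Whether UMIs of Mybpc2 come from its own promoter was not tested.

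The rest of the 25 were signalling, transport and enzyme genes. Mctp2 reached 1177 CPM against 60.8 CPM (19.3-fold, 17.0 to 21.9) with 0 to 11 UMIs per member. Srgap3, a GTPase-activating protein, reached 619 CPM against 24.1 CPM (25.7-fold). Upb1, an enzyme of pyrimidine breakdown, was 44.7-fold higher, Slco4a1, an organic anion transporter, 42.4-fold and Spns3, of a family of sphingolipid transporters, 35.3-fold. Suv39h2, a histone H3 lysine 9 methyltransferase, was 17.1-fold higher, Smim5 17.7-fold and Rpgrip1, a protein of the ciliary base, 16.5-fold.

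**Figure D2:**
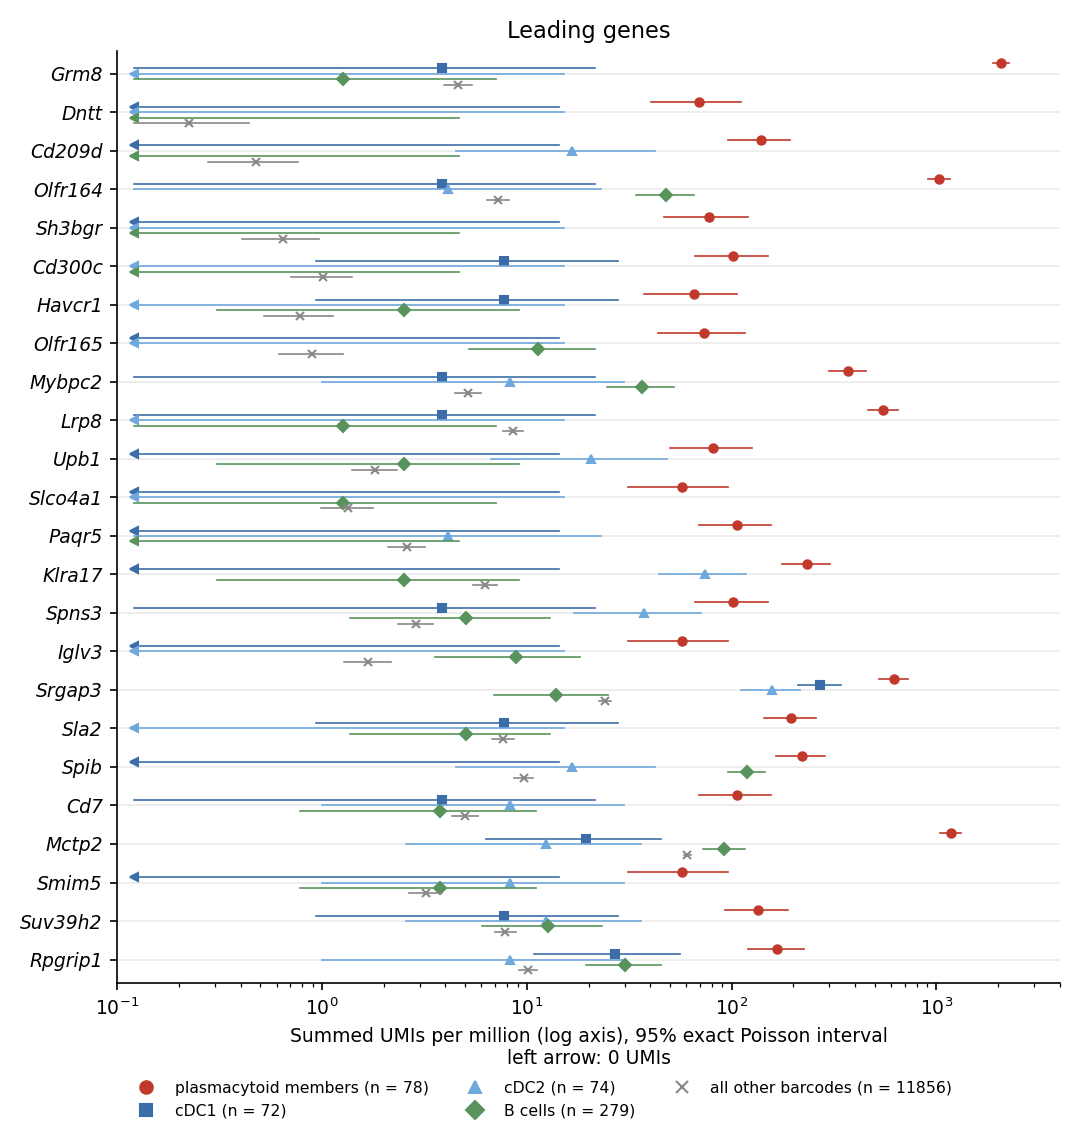
Summed CPM (log axis) of 24 of the 25 leading genes in the members (red), cDC1-like (dark blue), cDC2-like (light blue), B cell-like (green) and all other barcodes (grey), with 95% exact Poisson intervals cut at the left edge; arrows stand for 0 UMIs. The members' point is the highest in each row, and the nearest other points are those of cDC1-like barcodes for Srgap3 and of B cell-like barcodes for Spib.

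Most members carried several leading genes at once. The median member held 10 of the 25 (range 0 to 17), with a median of 11 in the 60 members of the common cluster and 4 in the 18 others, of which 4 held none. Other barcodes held a median of 0, and cDC1-like, cDC2-like and B cell-like barcodes a median of 1. At least 3 of the 25 were found in 70 members (89.7%) and in 183 of the 11856 other barcodes (1.54%), among them all 11 non-members of the common cluster. The 25 were chosen on these members, so these counts describe them only. Among the 25 barcodes with Siglech and 1 support gene, 1 held 3 or more.

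Transcription factors of the lineage were next. Of 15 listed factors in the table other than Tcf4, 14 were considered, and 3 were called higher: Runx2, Bcl11a and Spib. None was lower, and the median log2 fold of the 14 was 0.47 against 0.00 over all 5871 genes. Among all 5871, 2.61% were called higher and 2.57% lower. Spib reached the minimum only through the members. Runx2, which acts in the exit of plasmacytoid dendritic cells from bone marrow, had 0 to 14 UMIs per member with a median of 3 and reached 1185 CPM against 156 CPM (7.61-fold, 6.74 to 8.57). Bcl11a, a zinc finger factor required for B cells and plasmacytoid dendritic cells, was detected in 54 members at 456 CPM against 41.8 CPM (10.9-fold, 8.93 to 13.2). Irf7, the factor that amplifies interferon production, had 10 UMIs in 9 members (40.7 CPM against 15.2 CPM) and was not called against the library. Zeb2 (1217 against 831 CPM) and Ikzf1 (452 against 248 CPM) were not called either. Factors of conventional dendritic cells were not called lower against the whole library: Id2 stood at 171 against 202 CPM and Zbtb46 at 65.1 against 79.1 CPM. Irf8 was not analysed here.

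Of 24 listed surface and secreted genes of the lineage, 19 were considered, 16 were called higher and 1 lower, with a median log2 fold of 2.99. Over all 5871 genes considered, 2.61% were higher and 2.57% lower. Listed genes that are low elsewhere, such as Cd209d and Cd300c, reach the minimum only through the members. Their call of higher follows largely from the minimum, and so in part does the median. The list was chosen with earlier results of these cells known, so its count is not independent evidence. Beside those named above, Lair1, an inhibitory collagen receptor, was 9.18-fold higher, Ly6d 7.96-fold, the cytokine receptor Flt3 7.69-fold and the TLR4-like receptor Cd180 6.07-fold. Ly6c2 was 4.88-fold higher, the receptor phosphatase Ptprs 4.29-fold and Lag3 4.08-fold. Ly6c2 was detected in 44 of the 60 members of the common cluster and in 3 of the 18 others. Axl, a receptor that marks a dendritic precursor resembling plasmacytoid cells, was the 1 lower gene, with 7 UMIs in 4 members (28.5 against 161 CPM), 3 of them outside the common cluster. Clec12a and Lifr were not called.

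In the sensing pathway, 15 of 18 listed genes in the table were considered, 1 was called higher and 1 lower, and the median log2 fold was 0.67. The shares over all 5871 genes considered were 2.61% higher and 2.57% lower, with a median of 0.00. With 1 gene in each direction, nothing about the list is read from these counts. Slc15a4, an endolysosomal transporter needed for TLR7 and TLR9 signalling, was the higher one, at 167 against 37.3 CPM (4.47-fold, 3.19 to 6.10). Unc93b1, which carries these receptors to endosomes, was at 289 against 96.0 CPM, and Plac8 at 737 against 225 CPM, both under the 4-fold mark. Tlr7 had 14 UMIs in 13 members, at 57.0 CPM against 33.1 CPM in the library, 0 CPM in cDC1-like and 4.13 CPM in cDC2-like barcodes. Tlr9 had 0 UMIs in members, which allows up to 12.2 CPM, and was also low elsewhere (0.448 CPM). Tlr2, a surface receptor for bacterial lipoproteins, had 0 UMIs against 93.2 CPM elsewhere, at least 7.63-fold lower. Myd88 was not analysed here.

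Of 8 listed type I and III interferon genes, 1 was in the table: Ifnab, with 0 UMIs in the members and 0.0560 CPM elsewhere. The others (Ifna1, Ifna2, Ifna4, Ifna5, Ifnb1, Ifnl2 and Ifnl3) were not analysed here. Absence of interferon transcripts is therefore not shown. Of the 22 listed interferon-response genes, 7 were considered and none was called in either direction, with a median log2 fold of 0.73. The nearest to the mark were the interferon receptor subunits Ifnar1 (155 against 39.3 CPM) and Ifnar2 (366 against 118 CPM). The listed genes, these subunits included, took a median of 0.0945% of a member's UMIs (0 to 0.482%), against 0.0516% over the other barcodes. Induced genes under the minimum lay on both sides of the library level. Isg15 stood at 0.459-fold and Ifit1 at 0.374-fold, whereas Mx1 stood at 2.14-fold and Oasl1 at 2.85-fold. A raised interferon response is therefore not read from the share.

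Genes of antigen presentation differed from conventional dendritic cells but not from the library as a whole. Against the whole library, 12 of 16 listed genes were considered and none was called, with a median log2 fold of -0.07. Against cDC1-like and cDC2-like barcodes pooled (5597 genes considered, of which 5.72% were higher and 3.64% lower, with a median log2 fold over all of 0.27), 14 listed genes were considered without H2-DMb2, a gene of the cDC2 rule. Of the 14, 9 were called lower and none higher, and their median log2 fold was -2.35. The class II gene H2-Ab1 had 0 to 10 UMIs per member with a median of 1, and reached 586 CPM in members, 3803 CPM in cDC1-like, 4526 CPM in cDC2-like and 888 CPM in B cell-like barcodes. It was 7.08-fold lower than in the pooled conventional cells. Cd74, the invariant chain, was 5.48-fold lower (2235 CPM against 10186 and 14438 CPM), Ciita, the master regulator of class II genes, 4.80-fold, and the costimulatory ligand Cd86 8.95-fold. Genes of class I were not called: B2m stood at 1063 CPM against 805 and 954 CPM, and H2-K1 at 1201 against 1025 and 1169 CPM. H2-Ab1 was at 595 CPM in the 60 members of the common cluster and 557 CPM in the 18 others.

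The comparison with conventional dendritic cells also gave the 10 leading genes in each direction. Higher in members were Grm8, Lrp8, Olfr164, Mctp2, Mybpc2, Paqr5, Sla2, Pdzd4, Gria3 and Cxxc5. Grm8 had 1 UMI in all 146 conventional cells, a ratio of 1033 with a counting interval of 185 to 40893. Gria3, a subunit of AMPA glutamate receptors, was 42.8-fold higher (17.8 to 135). Grm8 was held by 33 of the 37 members with Gria3 and by 64 of all 78 members, and a link between them was not tested. Mctp2 was 73.6-fold higher (36.9 to 172). Dntt had 0 UMIs in the conventional cells and was at least 11.5-fold higher, against 3 UMIs over that group.

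Lower in members were Ifi205, P3h2, Dcstamp, Tnip3, Naaa, St3gal5, Aif1, Mgl2, Xcr1 and Tiam1. Naaa, Xcr1, Mgl2 and Tnip3 are genes of the cDC rules, so their difference follows from the choice of the groups. Ifi205, an interferon-inducible sensor family gene, had 1 UMI in the members against 456 CPM in cDC1-like and 37.2 CPM in cDC2-like barcodes (a ratio of 0.0160, interval 0.000403 to 0.0910). P3h2, a collagen prolyl hydroxylase, also had 1 UMI against 422 CPM in cDC1-like barcodes. Tiam1, a Rac activator, had 2 UMIs against 197 and 231 CPM. Of 14 listed factors considered against the pooled conventional cells, 4 were called higher (Bcl11a, Runx2, Spib and Irf7) and 1 lower. The shares over all 5597 genes were 5.72% higher and 3.64% lower. Irf7 lay at the minimum of 10 UMIs, and genes low in the conventional cells reach it only through the members. The lower factor was Batf3, which cDC1 depend on, at 16.3 CPM against 112 and 78.5 CPM. Id2 and Zbtb46 were not called. The listed immediate early genes, which respond to handling, were not called in either direction against conventional cells (median log2 fold -0.84 over 14 genes) or against the library (-0.46).

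Compared with B cell-like barcodes, 4.54% of 5635 genes were higher and 2.18% lower. Genes shared with B cells stood near the B cell level: Spib 1.85-fold above it, Bcl11a 1.66-fold, Blnk 1.96-fold and Plac8 1.57-fold above it, and Ly6d at 350 against 428 CPM. None of these 5 was called. Of the listed lineage factors 1 of 13 was higher, Runx2 at 1185 against 114 CPM (10.4-fold). Ighm was lower (594 against 3964 CPM), as was Ccr7 (24.4 against 153 CPM). Cd79a, the lead gene of the B cell rule, had 6 UMIs in the members.

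Secretory genes serve cells that export much protein. Of 15 listed genes considered, none was called against the library (median log2 fold 0.12). Jchain had 155 UMIs in 18 members, 93 of them in 1 barcode. In the same way Iglc1 had 95 UMIs in 4 members, 64 of them in 1 barcode, and its level was 1113 CPM in the 18 members outside the common cluster against 165 CPM in the 60. Of the homing receptors, Cxcr4 (155 against 159 CPM) and Ccr2 (134 against 95.2 CPM) were not called. Cox6a1, the widespread form of the subunit that Cox6a2 encodes, was at 114 CPM against 125 CPM, and was not called. Cox4i2, the lung form of another subunit, was lower (8.14 against 48.0 CPM). Cell cycle genes were too sparse to judge, with 2 of 10 considered, among them Mki67 with 11 UMIs in 8 members. The 4 haemoglobin genes were lower, with a median log2 fold of -2.62, but their direction depended on the barcodes taken: the median was -0.09 when 1 support gene sufficed and 0.61 over the whole common cluster. In other barcodes their share of UMIs had a median of 0% and a maximum of 41.4%, against a maximum of 0.125% in members.

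**Figure D3:**
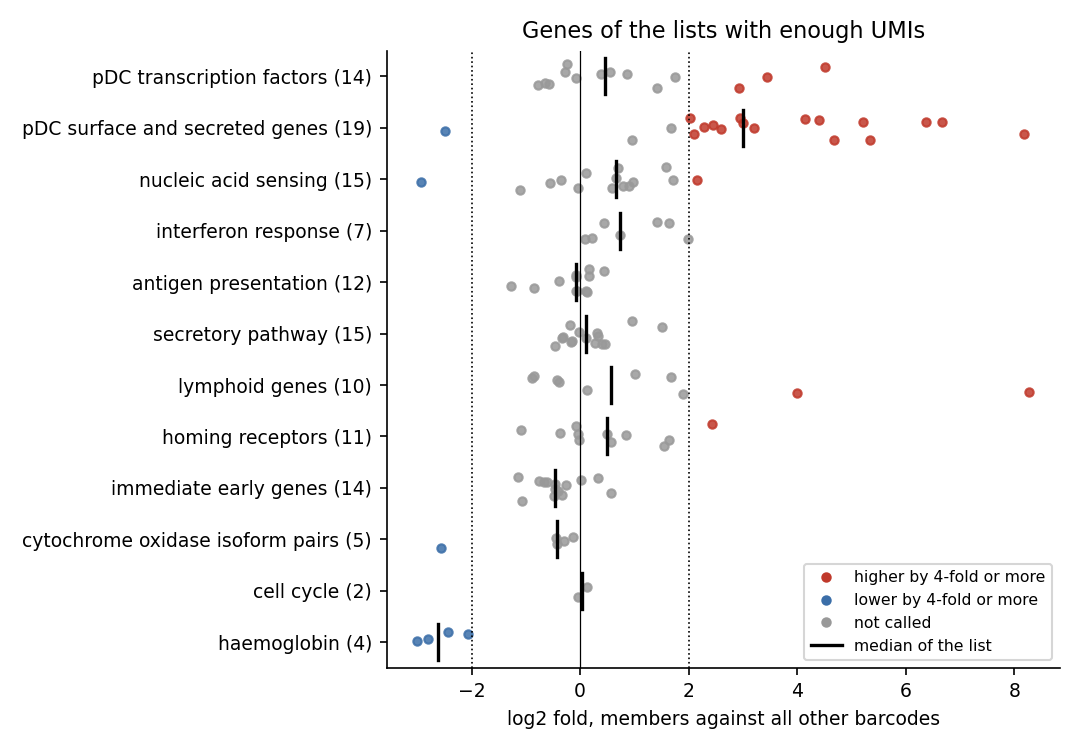
Log2 fold of members against all other barcodes (horizontal axis) for the listed genes with enough UMIs, 1 row per list with the number of genes in brackets. Red and blue points passed the 4-fold mark (dotted lines) and black bars are medians. The surface list lies mostly to the right of the mark, and the antigen presentation and secretory lists lie around 0.

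Depth was made equal by thinning each barcode to 1000 UMIs, which left out none. At that depth Grm8 was found in 73.1% of members, in 0 of 72 cDC1-like, 0 of 74 cDC2-like and 1 of 279 B cell-like barcodes. Runx2 was found in 61.5% of members and in 6.94%, 6.76% and 7.17% of these groups. Bcl11a (30.8% and 24.4%) and Ly6d (28.2% and 29.7%) were found at similar shares in members and B cell-like barcodes, with intervals that overlap. H2-Ab1 was found in 33.3% of members, against 93.1%, 100% and 53.0% of the groups in the same order.

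**Figure D4:**
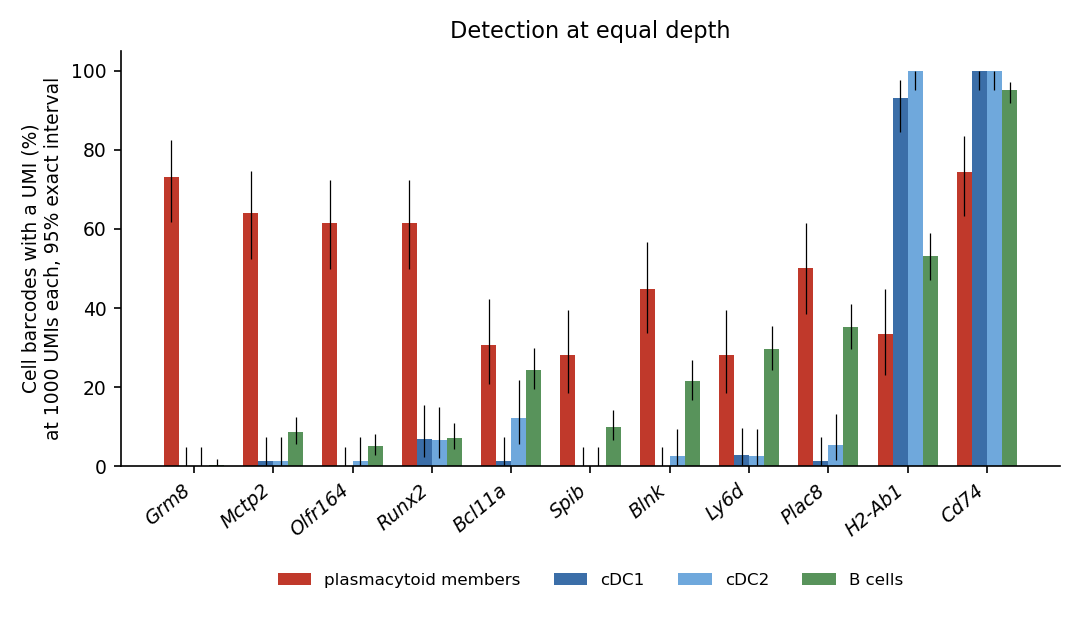
Share of barcodes with a UMI (vertical axis, %) at 1000 UMIs per barcode for 11 genes in the members (red), cDC1-like (dark blue), cDC2-like (light blue) and B cell-like (green) barcodes, with 95% exact binomial intervals. Grm8, Mctp2, Olfr164 and Runx2 are above 60% in members only, and H2-Ab1 and Cd74 are lower in members than in both cDC groups.

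The same marker rule was applied to the nuclei. It found 13 of 6849 nuclei in nuclei 1 (0.190%, 0.101 to 0.324%) and 18 of 9806 in nuclei 2 (0.184%, 0.109 to 0.290%), and these intervals lie below that of the cell library. Siglech alone was found in 0.938% of cell barcodes, 0.759% of nuclei 1 and 0.744% of nuclei 2, which lie closer together than the member shares. The rule was met by 78 of 112 Siglech barcodes in cells, 13 of 52 in nuclei 1 and 18 of 73 in nuclei 2. Fewer such cells in the sample and fewer captured marker UMIs per nucleus cannot be told apart by the rule. Tcf4 was found in all 31 of these nuclei, and it was also found in 78.8% and 70.2% of the other nuclei. Klk1 was found in none of them, and Cox6a2 in 1 of 13 and 0 of 18. Pacsin1 was found in 5 of 13 and 11 of 18.

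Few of the leading genes had enough UMIs in the nuclei to be compared. Of the 25 leading genes, 21 had a UMI in the members of nuclei 1 and 15 in those of nuclei 2, but 4 were considered in each. In nuclei 1, 8.08% of all genes considered were higher and 5.36% lower, and in nuclei 2 3.79% and 3.05%. Genes low in the other nuclei reach the minimum only through the members, so a call of higher, here and for the genes below, follows largely from the minimum and nothing is read from it. The folds of the 4 are a description: Grm8 (347-fold, interval 251 to 476, and 247-fold, 182 to 330), Olfr164 (235-fold and 91.3-fold), Srgap3 (23.9-fold and 6.04-fold) and Mctp2 (19.9-fold and 16.2-fold). Runx2 was above the other nuclei in both (1021 against 92.4 CPM and 1891 against 153 CPM), as was Bcl11a (13.2-fold and 17.2-fold). Grm8 was found in 5 of 13 and 11 of 18 nuclei, at 1399 and 1383 CPM, against 2064 CPM in cells. The surface genes were uneven in nuclei. Lair1 was 13.5-fold and 13.9-fold higher, with 14 UMIs in each library, and Cd180 had 10 and 9 UMIs (13.8-fold and 7.81-fold). Klra17 had 5 and 3 UMIs and Cd300c 1 and 6, under the minimum, whereas Ly6d had 0 UMIs in both and Ly6c2 0 and 1. Mybpc2 had 0 UMIs in both, which allows up to 66.6 and 61.0 CPM, against 370 CPM in cells. Genes of cDC1 were found in the members of nuclei 1: P3h2 had 23 UMIs in 6 of the 13 (511 against 71.1 CPM) and Naaa 13 UMIs in 3 (289 against 18.0 CPM), both called higher. Xcr1 had 3 UMIs in 1 of the 13. In nuclei 2, P3h2 had 3 UMIs, Naaa 1 and Xcr1 0, and in the cells P3h2 had 1, Naaa 0 and Xcr1 2. The part of these genes in the values of nuclei 1 was not tested. Cells and nuclei also differ in fresh against frozen tissue, in dissociation and in the number of genes in their tables (22588 and 22640), and these cannot be told apart.

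**Figure D5:**
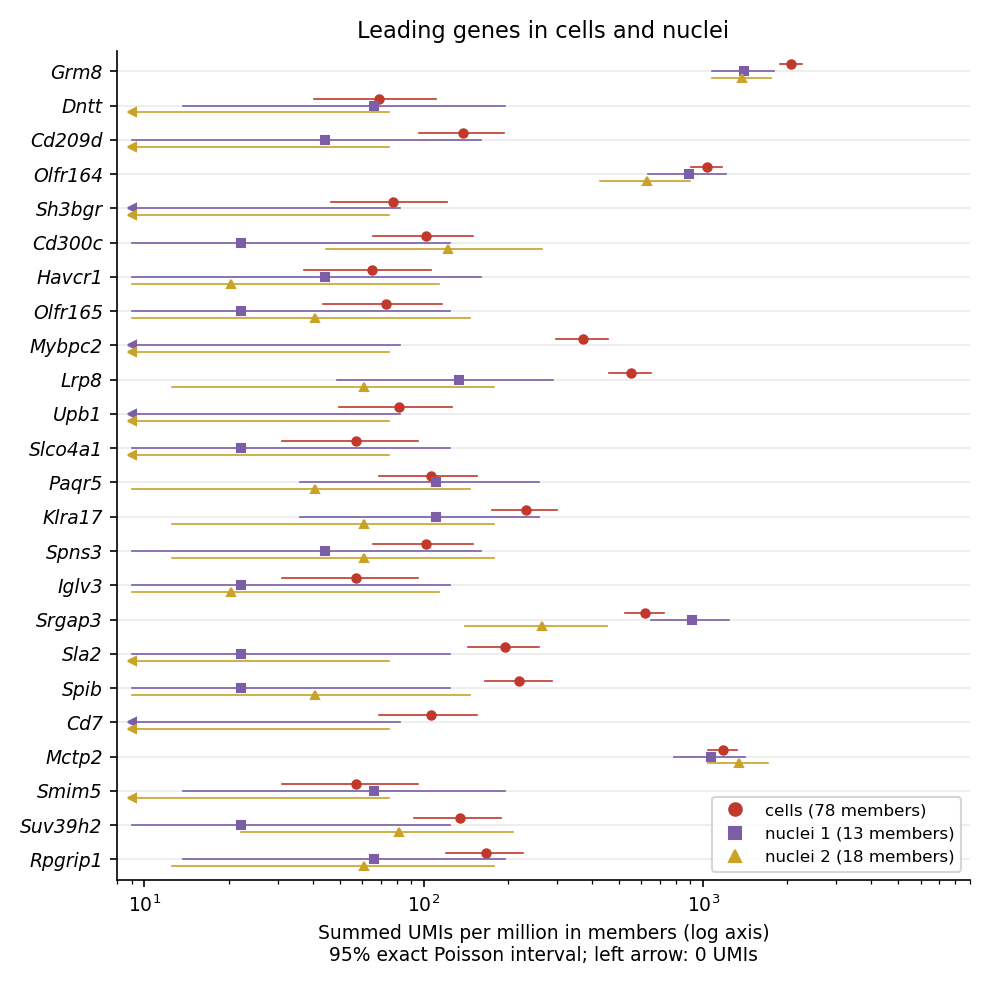
Summed CPM (log axis) of 24 of the 25 leading genes in the members of the cell library (red), nuclei 1 (purple) and nuclei 2 (yellow), with 95% exact Poisson intervals cut at the left edge; arrows stand for 0 UMIs. Grm8, Olfr164 and Mctp2 lie between 630 and 2064 CPM in all 3 libraries, and Mybpc2, Sh3bgr, Upb1 and Cd7 have 0 UMIs in both nucleus libraries.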

How the data were processed

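Lung cells (1 library) and nuclei (2 libraries) were profiled with 10x Chromium kits. The deposited tables hold UMI counts per gene and barcode, not normalized. Per the submitters' processing notes, the authors used STAR 2.5.3a and mm10. The sources used here do not state how UMIs were counted, cells filtered or doublets removed. The cell library has 22588 genes and 773 to 2499 genes per barcode.

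Members were taken by the marker rule, and their UMIs were summed and divided by their total (CPM), with exact Poisson and Clopper-Pearson 95% intervals (scipy 1.17.1). Genes were called at 4-fold with a minimum of 10 UMIs, and a group at 0 was set to 3 counts. Comparison groups met the rule of 1 class (a lead gene and 2 or more support genes). The genes named were the 25 leading against other barcodes, in at least 10% of members and without clone-like, ribosomal and mitochondrial symbols, the 10 leading in each direction against cDC1-like and cDC2-like barcodes pooled, and the listed genes. Clusters (scanpy 1.11.5, Leiden, 2000 variable genes, 30 components, 20 neighbours, resolution 1) left out the 7 rule genes. Scrublet marked 7 barcodes, none a member, which is under 0.5%, so it did not work here and no doublets were removed. The calls were tried on simulated Poisson counts with changes larger than the 4-fold mark, in genes expected to lie above the minimum of 10 UMIs. This does not test genes near either limit or differences between barcodes. The members and lists were chosen with earlier results of these data known. Loci are from GENCODE M21 and promoters from RefSeq. Values of some genes are not reported here.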

Additional observations from a re-analysis of the deposited data

How the results depend on the processing

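With 1 cell library, no value has a replicate behind it and no library could be left out. No paired analysis was possible because the labels give 1 cell library and no numbers shared across groups. The 25 leading genes, which were followed one by one, stayed above 4-fold wherever they were considered. Those low in the other barcodes are considered only through the members. Staying above 4-fold thus follows largely from the minimum, and nothing is read from it. Beside Grm8, 3 of the 25 moved by over 1.5 times. Without members meeting another class rule, the log2 fold of Cd300c went from 6.66 to 5.92 and that of Slco4a1 from 5.41 to 6.04. After thinning, that of Spns3 went from 5.14 to 6.22. The median log2 fold of haemoglobin genes reversed, from -2.62 to 0.61 over the whole common cluster, and was -0.09 with 1 support gene. Other list medians moved without reversing. That of lymphoid genes went from 0.58 to 1.47 with 3 support genes and to 2.15 without members meeting another class rule. After thinning, medians rose for interferon response (0.73 to 1.98), nucleic acid sensing (0.67 to 1.75), homing receptors (0.50 to 1.63) and transcription factors (0.47 to 1.15). The cause of these moves was not tested. Asking for 3 support genes, for 1 of Ccr9, Klk1, Cox6a2 and Pacsin1, or median-of-ratios size factors moved no count by more than 1.5 times. Asking for 1 support gene gave 0.863% of barcodes, 85 lower genes and 1 lower listed gene. Leaving out members that met another class rule left 43 members (0.360%) and 321 lower genes. After thinning to 1000 UMIs 42 members (0.352%) remained, with 95 higher genes, 47 lower and 0 listed genes lower; 9 leading genes could still be considered. A minimum of 3 UMIs gave 269 higher and 346 lower genes. A minimum of 30 gave 85 higher, 35 lower, and 15 listed genes higher and 4 lower. In settings added after seeing the data, the members of the common cluster were 0.503% of barcodes with 245 lower genes, and the whole cluster had 3 listed genes lower. The main counts were 78 members, 153 higher, 151 lower, and 23 listed genes higher and 7 lower. The counts of lower genes rest on few UMIs (median 3 per gene in members), which limits their precision.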
